A study of Mus musculus with 6 samples.

Results

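The 10 genes described here belong to the integrated stress response that works through the transcription factor ATF4. They are Atf4, Atf5, Ddit3, Trib3, Chac1, Asns, Psat1, Phgdh, Slc7a11 and Sesn2, taken by symbol from a table of 19713 genes, and each symbol matched 1 row. All 10 were among the 15287 genes tested, which needed 10 or more normalized counts in no fewer than 2 libraries. A normalized count is the number of reads of a gene divided by the size factor of its library. In the reference annotation the genes lie on chromosomes 15 (Atf4), 7 (Atf5), 10 (Ddit3), 2 (Trib3 and Chac1), 6 (Asns), 19 (Psat1), 3 (Phgdh and Slc7a11) and 4 (Sesn2).

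The study compared RNA from mouse embryonic stem cells of 3 THAP1 genotypes. Each genotype had a replicate 1 and a replicate 2 library, 6 in all. THAP1 is a zinc finger transcription factor in which mutations cause a form of dystonia. WT cells carried no change in Thap1, C54Y cells were homozygous for a missense change in its DNA-binding domain, and KO cells were labelled THAP1 -/- and described as lacking exon 2. The lines, of C57Bl/6 blastocyst origin, were kept on a feeder layer of irradiated mouse fibroblasts in 15% serum with LIF at 1000 units per ml, so no agent that triggers the stress response was named for any group. The labels do not say whether the libraries of a genotype were separate cultures or clones, so each p-value measures only the spread between these samples, which may be technical. The question was which members of the response differed in mutant cells from WT cells of the same replicate number.

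In the integrated stress response, kinases that sense amino acid shortage, unfolded protein, double-stranded RNA or haem deficiency phosphorylate the translation factor eIF2. General protein synthesis then falls, while ATF4 protein is made from its mRNA through upstream reading frames, so that much of the control of ATF4 lies in translation, which RNA levels do not show. ATF4 pairs with C/EBP proteins, binds C/EBP-ATF response elements and raises genes for amino acid synthesis, amino acid import and, under lasting stress, cell death.

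Stretches near the start sites of 4 members are shown because they hold the core letters of that response element, TGATGNAA, which were searched on both strands. The windows run from 250 bases before to 50 bases after each RefSeq start on GRCm38.p6, and all 10 genes matched, with 12 windows. Capitals mark the matches, and a match on the other strand appears as its reverse complement.
Chac1, chr2:119351029-119351128, plus strand: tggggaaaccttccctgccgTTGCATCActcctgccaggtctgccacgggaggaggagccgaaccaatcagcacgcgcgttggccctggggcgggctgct
Slc7a11, chr3:50443614-50443713, minus strand: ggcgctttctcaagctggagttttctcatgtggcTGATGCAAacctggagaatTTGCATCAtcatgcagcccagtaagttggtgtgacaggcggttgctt
Asns, chr6:7693210-7693309, minus strand: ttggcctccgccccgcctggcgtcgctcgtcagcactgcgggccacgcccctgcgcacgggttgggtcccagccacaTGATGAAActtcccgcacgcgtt
Trib3, chr2:152344028-152344057, minus strand: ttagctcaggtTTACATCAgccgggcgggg

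Matches stood in 4 of the 12 windows, against 3.97% of all 32851 promoter windows of this length. Slc7a11 held 2 of them, in opposite orientation, the nearer one 40 to 47 bases before the start. A match is a description of the letters and not a measured binding site. The other consensus searched, TNNGGGCA for THAP1, was found in 1 of the 12 windows, upstream of Psat1, and in 13.9% of all windows. No binding was measured here, and windows without a match say only that these letters are absent from them.

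Replicate 1 libraries held 40640369 to 46772996 reads, with 18140 to 18481 genes detected. Replicate 2 libraries held 31774656 to 35285464 reads, with 17061 to 17291 genes detected. Replicate numbers parted the libraries more than genotypes did: 64.9% of tested genes differed between replicate 2 and replicate 1, and mutants were therefore set against WT with the replicate number in the model. Thap1 itself had 433 and 701 normalized counts in WT, 2253 and 2533 in C54Y, then 1975 and 1687 in KO libraries (replicate 1 first). These are whole-gene counts, which check neither a missing exon nor a changed base. The 8 embryonic stem cell markers examined were detected in all libraries, and their summed counts stood in the order WT, C54Y, KO in both replicates (163546, 191457 and 301870 in replicate 1, then 347072, 408303 and 496970). Of these 8 markers, 5 were called higher in KO than in WT (8.9% of all tested genes) and 1 in C54Y (0.962%), none lower. The largest rises among the 8 in KO were those of Zfp42 (7.91-fold), Nanog (2.75-fold) and Esrrb (2.18-fold). Sox2 (log2 change 0.43), Tdgf1 (0.29) and Utf1 (-0.14) were not called in KO. Summed counts of 8 extraembryonic endoderm markers were 3281 to 3837 in WT, 932 to 956 in C54Y and 550 to 580 in KO. Of these 8, 7 were called lower in KO (7.41% of all tested genes) and 7 in C54Y (0.399%), none higher. Summed counts of 14 fibroblast markers ran from 2887 to 14563 in replicate 1 and from 33194 to 39583 in replicate 2, lowest in KO replicate 1. Few genes carry much of these sums. Tagln had 9022 in WT and 393 in KO of replicate 1, and Acta2 had 11360 to 14988 in replicate 2. Loxl1 (223 and 233) and Thy1 (220 and 217) hardly differed between WT and KO of replicate 1. Of the 13 fibroblast markers tested, 11 had log2 changes below 0 in KO against WT, beside 47.3% of all tested genes. Only 1 of the 13 was called lower (7.41% of all tested genes) and none higher. In replicate 2 their summed count was not lower in KO (36392) than in WT (33194).

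Measured per kilobase of exon, so that genes can be compared with each other, the WT level was highest for Atf4 (mean of 8786 normalized counts per kilobase). The amino acid synthesis genes followed, with Phgdh at 5748, Asns at 5498 and Psat1 at 4068. Trib3 (1444) and Sesn2 (1063) came next, then Chac1 (636), Atf5 (599) and Ddit3 (475), and Slc7a11 stood last at 3.27. In that order of WT levels, the ranges of the 2 WT libraries were apart only between Asns and Psat1, Psat1 and Trib3, Sesn2 and Chac1, and Ddit3 and Slc7a11. Over all 6 libraries, Asns and Psat1 overlapped too. The cells thus held abundant Atf4 mRNA and serine synthesis mRNA in every genotype, and next to none of the cystine transporter: Slc7a11 was counted with 11 to 89 reads per library.

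**Figure D1:**
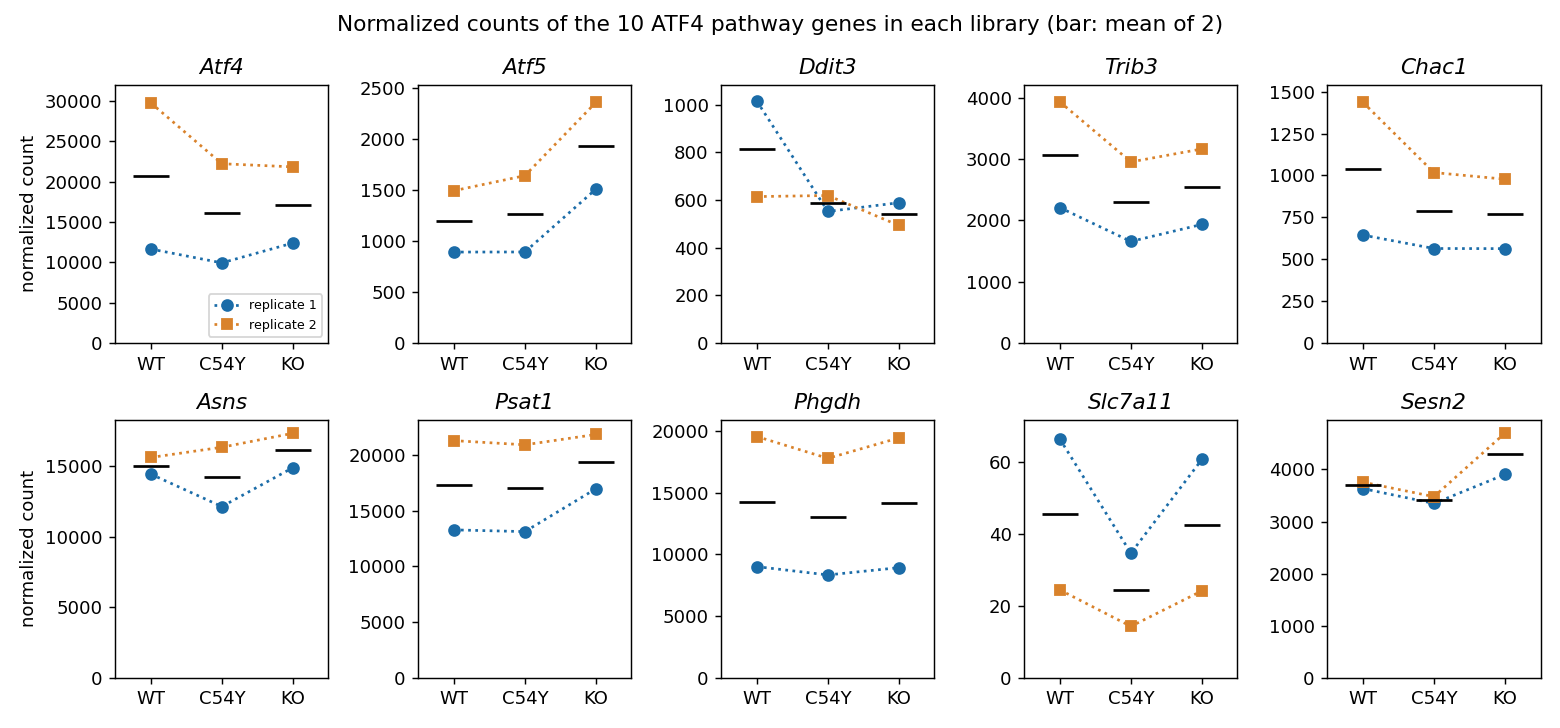
Normalized counts (vertical axes, each starting at 0) of the 10 genes in WT, C54Y and KO libraries; circles are replicate 1, squares replicate 2, dotted lines join libraries of the same replicate and black bars are means of 2. KO libraries lie above the WT and C54Y library of the same replicate for Atf5, Asns, Psat1 and Sesn2, by the widest log2 step for Atf5. For most genes the gap between replicates exceeds the gap between genotypes.

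In KO cells, 1 of the 10 genes, Atf5, was called different from WT, and it rose 1.63-fold. Among all tested genes 16.3% were called in this comparison, 8.9% as higher and 7.41% as lower, so 1 of 10 is no larger a share than in the table as a whole. The median log2 change of the 10 genes was -0.04, beside 0.03 for all genes tested. Differences were called at an adjusted p under 0.05 in limma, with adjustment by the Benjamini-Hochberg method over all tested genes. In bulk RNA, fewer cells of a type and less RNA per cell cannot be told apart, for these and all later values.

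Atf4, the transcription factor that drives the response, had 11649 and 29784 normalized counts in WT, 9931 and 22232 in C54Y, against 12395 and 21841 in KO, in replicates 1 and 2. The replicate 2 library was the higher one in each genotype, and the genotypes overlapped. KO differed from WT by 0.09 on the log2 scale in replicate 1 and by -0.45 in replicate 2, which together gave -0.18 (95% interval -0.51 to 0.15; adjusted p = 0.445). The replicates thus pointed in opposite directions, and Atf4 mRNA was not called different. Without KO replicate 1 the value was -0.40 and passed the test, in a fit that called more of all tested genes than the full one.

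Atf5, a close relative of ATF4 whose mRNA is likewise under translational control, had 893 and 1495 normalized counts in WT, 893 and 1643 in C54Y, against 1511 and 2364 in KO. Both KO libraries lay above both WT libraries, as for 13.6% of tested genes, although KO replicate 1 exceeded WT replicate 2 only narrowly. The KO and C54Y libraries overlapped. Group means were 1938 ± 603 in KO, 1194 ± 426 in WT and 1268 ± 530 in C54Y (SD, n = 2 each). The rise in KO was 0.76 in replicate 1 and 0.66 in replicate 2 on the log2 scale, and 0.71 ± 0.16 (SE) in the model, with a 95% interval of 0.36 to 1.06 (adjusted p = 0.0169). The call was made in 11 of 14 settings. It was lost without WT replicate 1 (adjusted p = 0.0767), without WT replicate 2 (0.11) and without the replicate block (1.00), with the change still 0.72, 0.70 and 0.71. Beside this rise, the 8 stem cell markers had a median log2 change of 0.70 in KO, and their summed counts were higher in KO than in WT of both replicates. The summed endoderm markers were lower in both KO libraries than in WT, and the summed fibroblast markers were lower in KO replicate 1 but not in replicate 2. The part of these marker differences in the result was not tested.

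The exons of Atf5 share 82 bases with Nup62, a nuclear pore gene on the opposite strand, in the GENCODE annotation of GRCm38. The strand setting of the counting is not given in the sources used here. Nup62 changed by 0.28 in KO and was not called (adjusted p = 0.165). Il4i1, which shares the same bases, had less than 1 normalized count in every library. Ddit3 likewise shares 68 bases with Mars, the methionyl-tRNA synthetase gene, which changed by 0.11 in KO (adjusted p = 0.59).

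Ddit3 encodes CHOP, which promotes death of cells under lasting stress. It had 1014 and 614 normalized counts in WT, 551 and 618 in C54Y, against 588 and 493 in KO. The KO libraries lay below both WT libraries, which 13.6% of tested genes did in this comparison, and WT replicate 1 was the highest of the 6. The KO difference was -0.55 on the log2 scale, -0.78 in replicate 1 and -0.32 in replicate 2, and did not pass the test (95% interval -1.07 to -0.03; adjusted p = 0.141).

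Trib3, a pseudokinase induced by ATF4 and CHOP that feeds back on ATF4, had 2207 and 3931 normalized counts in WT, 1654 and 2951 in C54Y, against 1933 and 3163 in KO. In each replicate WT was highest and C54Y lowest, while the ranges of the groups overlapped. KO differed from WT by -0.25 (95% interval -0.57 to 0.07; adjusted p = 0.262).

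Chac1, which degrades glutathione, had 644 and 1437 normalized counts in WT, 564 and 1017 in C54Y, against 563 and 978 in KO. Both mutants had lower values than WT of the same replicate, with overlapping groups. The KO difference was -0.37 (95% interval -0.78 to 0.03; adjusted p = 0.189). Without KO replicate 1 it was -0.48 and was called, again in a fit that called more of all tested genes.

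The enzymes of amino acid synthesis showed small differences. Asns, which makes asparagine, had 14445 and 15627 normalized counts in WT, 12143 and 16352 in C54Y, against 14903 and 17344 in KO. Psat1, the aminotransferase of serine synthesis, had 13293 and 21321 in WT, 13137 and 20946 in C54Y, against 16990 and 21875 in KO. Phgdh, which commits carbon to serine synthesis, had 9010 and 19570 in WT, 8336 and 17798 in C54Y, against 8929 and 19460 in KO. Groups overlapped for all 3 enzymes. The KO difference was 0.10 for Asns (95% interval -0.19 to 0.38), 0.20 for Psat1 (-0.09 to 0.48) and -0.01 for Phgdh (-0.27 to 0.25). The interval for Phgdh corresponds to 0.83-fold to 1.19-fold in this fit, and does not show that the gene was unchanged. Psat1 differed by 0.35 in replicate 1 and by 0.04 in replicate 2. It was called without KO replicate 2 (0.35), in a fit that called more of all tested genes. A processed copy of Phgdh, Phgdh-ps1, is in the reference annotation, and how reads shared with it were counted is not given in the sources used here.

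Slc7a11, the cystine importer, had 66.5 and 24.4 normalized counts in WT, 34.7 and 14.3 in C54Y, against 60.8 and 24.2 in KO. KO and WT nearly coincided within each replicate, and the difference of -0.07 had the widest interval of the 10 genes in this comparison (-0.85 to 0.71). That gene had 11 to 89 reads per library, the fewest of the 10. Sesn2, a sensor of leucine that restrains mTORC1, had 3633 and 3756 normalized counts in WT, 3347 and 3478 in C54Y, against 3904 and 4698 in KO. For Sesn2 both KO libraries lay above both WT libraries, as for 13.6% of tested genes. The KO difference of 0.21 was not called (95% interval -0.10 to 0.53; adjusted p = 0.343).

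**Figure D2:**
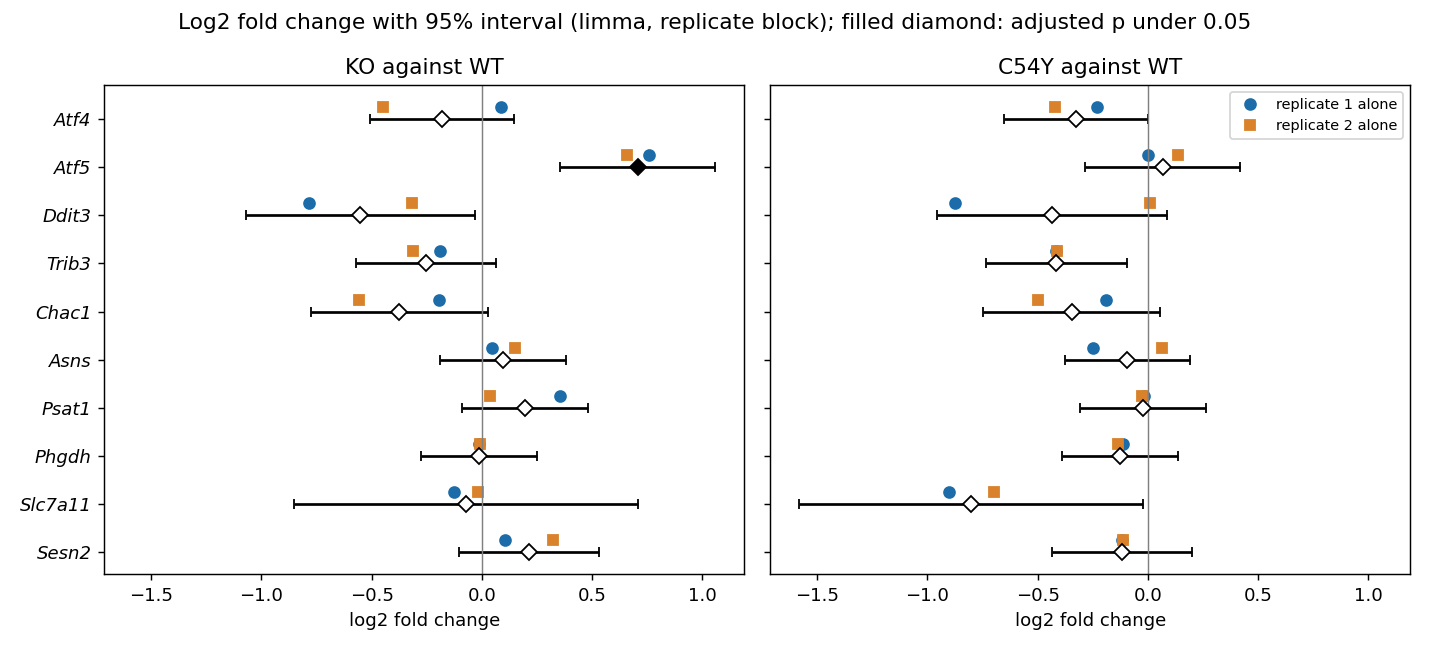
Log2 fold change (horizontal axis) of each gene in KO and in C54Y against WT; diamonds with bars are limma estimates with 95% intervals, a filled diamond marks an adjusted p under 0.05, and circles and squares are the differences within replicate 1 and replicate 2. Atf5 in KO is the filled diamond at 0.71; the C54Y diamonds are all open and 9 of 10 lie below 0.

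In C54Y cells none of the 10 genes was called by limma against WT, where 1.36% of all tested genes were called (0.962% higher, 0.399% lower). At an unadjusted p under 0.05 there were 2, Trib3 and Slc7a11, beside 12.3% of all tested genes. edgeR and DESeq2 with the replicate block also called 0 members. The median log2 change of the 10 genes was -0.23, beside -0.00 for all genes tested. The summed endoderm markers were lower in both C54Y libraries than in WT, and their part in the member values was not tested. C54Y and KO were both set against the same 2 WT libraries, so their values are given side by side and are not independent.

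Trib3 differed by -0.41 in C54Y, -0.42 in replicate 1 and -0.41 in replicate 2, with a 95% interval of -0.73 to -0.10 and an adjusted p of 0.245. The interval excluded 0 while the adjusted p missed the threshold. Slc7a11 differed by -0.80 (95% interval -1.58 to -0.02; adjusted p = 0.394). Its 51 and 11 reads in C54Y stood against 89 and 19 in WT. Atf4 differed by -0.33 (95% interval -0.65 to 0.00; adjusted p = 0.407), with -0.23 in replicate 1 and -0.42 in replicate 2.

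Chac1 differed by -0.34 (95% interval -0.75 to 0.06) and Ddit3 by -0.43 (-0.95 to 0.09). For Ddit3 the difference stood in replicate 1 alone, at -0.88 against 0.01 in replicate 2. Sesn2 differed by -0.11 (95% interval -0.43 to 0.20), with both C54Y libraries below both WT libraries, as for 8.69% of tested genes. Asns differed by -0.09, Psat1 by -0.02 and Phgdh by -0.12, and none had an interval reaching beyond -0.39. Atf5, the gene that rose in KO, differed by 0.07 in C54Y (95% interval -0.28 to 0.42; adjusted p = 0.928).

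Lower values in both replicates were seen for 7 members in C54Y against WT (Atf4, Trib3, Chac1, Psat1, Phgdh, Slc7a11 and Sesn2), beside 32.6% of all tested genes. In KO against WT there were 5 (Ddit3, Trib3, Chac1, Phgdh and Slc7a11), beside 29.5%. Within C54Y replicate 1, 9 of 10 members lay below WT, as did 47.3% of all genes. Within C54Y replicate 2 it was 7 of 10, beside 51.6%. None of these differences was called, and no test was made over the members together. A KO library takes no part in these differences but does in the estimate of the spread. Leaving out either one led to calls for Atf4 (still -0.33) and Trib3 (still -0.41) in C54Y, and to more calls among all tested genes.

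The mutants were also set against each other. By limma none of the 10 genes was called in KO against C54Y, where 0.19% of all tested genes were called. At an unadjusted p under 0.05 there were 2 members, beside 15.4% of all tested genes. edgeR called 0 members and DESeq2 1, beside 2.96% of all genes in DESeq2. Atf5 was 0.64 higher on the log2 scale in KO (95% interval 0.29 to 0.99), 0.76 in replicate 1 and 0.52 in replicate 2. Its adjusted p was 0.12 in limma and 0.0349 in DESeq2. Without KO replicate 1 or 2 the value of Atf5 was 0.56 or 0.72 and was called, with more of all tested genes called too. The rise of Atf5 in KO and its absence from the calls in C54Y therefore do not amount to a called difference between the mutants in the limma fit. Sesn2 was 0.33 higher in KO (95% interval 0.01 to 0.65; adjusted p = 0.312), with libraries apart, as for 8.64% of tested genes. Slc7a11 differed by 0.73 with an interval of -0.05 to 1.51. The other 7 members differed by -0.12 to 0.22.

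The larger contrast in these genes was between the replicate numbers. Of the 10 genes, 7 were called between replicate 2 and replicate 1, beside 64.9% of all tested genes. Higher in replicate 2 were 6 (32% of all genes) and lower 1 (32.8%). Phgdh was 2.16-fold higher in replicate 2 (log2 change 1.11, 95% interval 0.90 to 1.33; adjusted p = 1.1e-05). Atf4 also rose by 1.11 (0.84 to 1.38). The step in Atf4 was 1.35 in WT, 1.16 in C54Y and 0.82 in KO, whereas that of Phgdh was 1.12, 1.09 and 1.12.

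Chac1 was 0.93 higher, Trib3 0.79, Atf5 0.75 and Psat1 0.57, all of them called. Slc7a11 went the other way and was 1.27 lower on the log2 scale (log2 change -1.27, 95% interval -1.91 to -0.63; adjusted p = 0.00349). Asns (0.25; adjusted p = 0.0546), Sesn2 (0.12; 0.368) and Ddit3 (-0.27; 0.232) were not called. Ddit3 was -0.72 in WT, 0.16 in C54Y and -0.25 in KO. Fibroblast markers moved with this contrast, 10 of 13 tested being called higher in replicate 2 and none lower, with 1 of the 14 listed, Lum, at 0 in 5 libraries. The summed stem cell markers were also higher in replicate 2 in each genotype, but the median log2 change of the 8 was -0.02. Of these 8, 4 had log2 changes below 0. Calls were made for 3 as higher (32% of all tested genes) and 2 as lower (32.8%). What the replicate number stands for is not stated. The part of these markers, or of the lower depth of replicate 2, in the contrast was not tested.

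**Figure D3:**
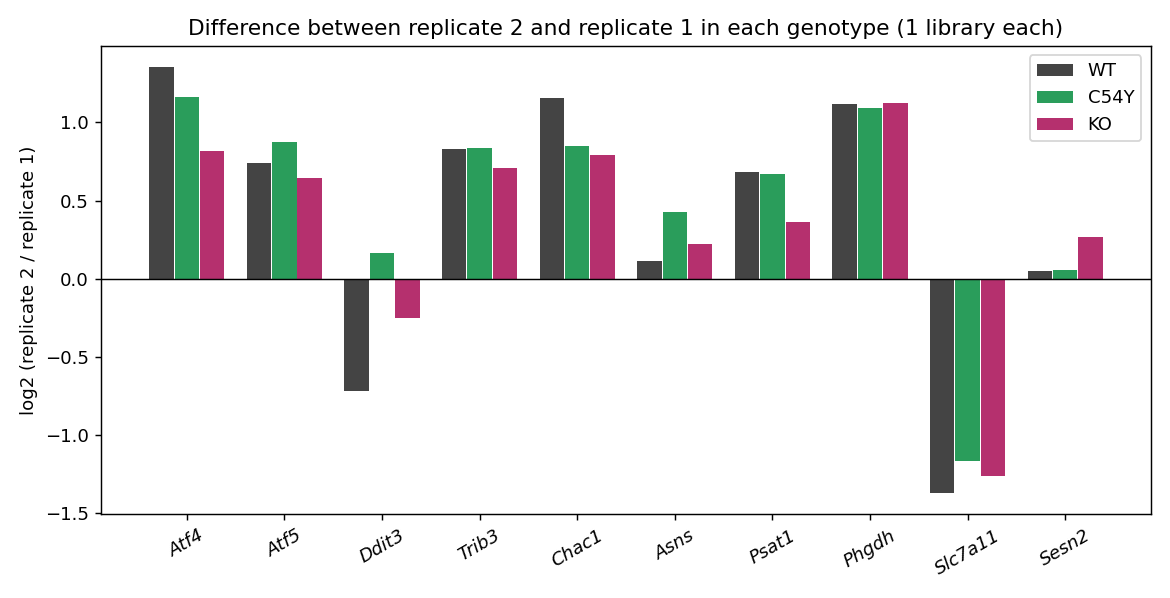
Difference between replicate 2 and replicate 1 in each genotype (vertical axis, log2 of the ratio; 1 library each, so no error bars) for the 10 genes. Bars of Atf4, Atf5, Trib3, Chac1, Psat1 and Phgdh are above 0 in all 3 genotypes, those of Slc7a11 below 0 in all 3, and those of Ddit3 have both signs.

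The rest of the pathway was read from 10 further lists with 104 genes, all of which were tested. In KO against WT, 11 rose and 6 fell, 16.3% in all, beside the 16.3% of all tested genes given above. In C54Y against WT none of the 104 was called by limma, beside 1.36% of all tested genes, or by edgeR, beside 1.3%. By limma 10 of the 104 had an unadjusted p under 0.05, beside 12.3% of all tested genes. DESeq2 called 3 (Gdf15, Jdp2 and Xbp1), beside 3.13% of all genes in DESeq2. In KO against C54Y limma and edgeR also called 0, beside 0.19% and 0.66% of all tested genes. By limma 13 of the 104 had an unadjusted p under 0.05, beside 15.4% of all tested genes. DESeq2 called 2 (Shmt2 and Slc7a3), beside 2.96% of all genes in DESeq2. Of the 17 calls in KO, 5 were made under each of the 13 settings with the replicate block (Xbp1, Slc7a3, Shmt2, Jdp2 and Atf3), and 12 were lost under at least 1. Without the block none was made, with 5 genes at an unadjusted p under 0.05, beside 6.86% of all tested genes.

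Upstream of ATF4, the 4 kinases that phosphorylate eIF2 were not called in KO. The heme-regulated kinase Eif2ak1 differed by 0.09, the double-stranded RNA sensor Eif2ak2 by 0.32, the endoplasmic reticulum sensor Eif2ak3 by 0.25 and the amino acid sensor Eif2ak4 by 0.13. Eif2ak2 moved by 0.80 in replicate 1 and by -0.15 in replicate 2. Eif2ak1 was at -0.00 under TMM scaling and in edgeR, so its sign is not settled. Ppp1r15a, which encodes the stress-induced phosphatase subunit GADD34, differed by 0.06 (-0.03 under TMM scaling and in edgeR). The catalytic subunit Ppp1ca rose by 0.40 (adjusted p = 0.0486), a call that held in 4 of 13 settings. Among the 5 subunits of eIF2B, the exchange factor that phosphorylated eIF2 blocks, Eif2b5 rose by 0.60 (adjusted p = 0.0124), and the list's median was 0.28. That call was lost without WT replicate 2 (0.0867).

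Among 9 other transcription regulators of the bZIP family and stress response, 1 rose and 2 fell in KO. Atf3, a bZIP factor induced by ATF4, had 271 and 281 normalized counts in WT, 232 and 184 in C54Y, against 105 and 125 in KO. Both KO libraries were below both WT libraries, as for 13.6% of tested genes. The fall in KO was by 1.25 on the log2 scale (log2 change -1.25, 95% interval -1.83 to -0.68; adjusted p = 0.0122). Jdp2, a bZIP repressor, had 315 and 152 normalized counts in WT, 467 and 448 in C54Y, against 690 and 542 in KO. It rose by 1.47 in KO (95% interval 0.88 to 2.06; adjusted p = 0.0072) and differed by 1.06 in C54Y, where it was not called (0.104).

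Nfe2l2, which encodes NRF2, had a log2 change of -0.49 (adjusted p = 0.0451), and this call held in 8 of 13 settings. The C/EBP partners of ATF4 were not called: Cebpb differed by -0.28 and Cebpg by -0.48 (adjusted p = 0.126). Nupr1, a stress-induced chromatin protein, differed by 0.04, and by -0.04 under TMM scaling and -0.02 in edgeR.

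The list of serine, one-carbon and other amino acid synthesis held 15 genes, of which 3 rose and none fell in KO (median 0.19). Shmt2, the mitochondrial enzyme that passes carbon from serine to folate, had 4983 and 9928 normalized counts in WT, 6181 and 11711 in C54Y, against 9402 and 16590 in KO. KO was highest in both replicates, while the ranges of KO and WT overlapped across replicates. It rose by 0.83 (95% interval 0.54 to 1.11; adjusted p = 0.00388). Its cytosolic counterpart Shmt1 rose by 0.52 (adjusted p = 0.0284; called in 7 of 13 settings) and the branched-chain aminotransferase Bcat1 by 0.57 (adjusted p = 0.0238; lost without WT replicate 2 at 0.157 and without C54Y replicate 2 at 0.0533). Psph, the last enzyme of serine synthesis after Phgdh and Psat1, differed by -0.11. Mthfd2, the next enzyme of mitochondrial folate metabolism, differed by -0.08. None of the 3 serine synthesis genes Phgdh, Psat1 and Psph was thus called in KO.

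Of 11 amino acid transporters, Slc7a3 rose and Slc1a4 had a called lower value in KO. Slc7a3, which imports arginine and lysine, had 6815 and 7245 normalized counts in WT, 7397 and 8862 in C54Y, against 15656 and 12600 in KO. Both KO libraries were above both WT libraries, as for 13.6% of tested genes. The rise was by 1.00 (95% interval 0.64 to 1.35, adjusted p = 0.00446), and C54Y differed from WT by 0.20. Whether Slc7a3 is X-linked was not looked up here. The 527 tested X-linked genes had a median log2 change of 0.59 in KO. The part of that shift in this rise was not tested. Slc1a4, a neutral amino acid exchanger, had a log2 change of -0.50 (adjusted p = 0.0472; called in 8 of 13 settings).

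None of the 20 cytosolic aminoacyl-tRNA synthetases, a standard group of ATF4 targets, was called in either mutant by limma, edgeR or DESeq2, and 1 had an unadjusted p under 0.05 in KO (31.1% of all tested genes) and 0 in C54Y (12.3%) by limma. Their median was 0.10 in KO and -0.09 in C54Y. Among 14 other genes linked to ATF4, the cytokine gene Gdf15 rose in KO. It had 111 and 156 normalized counts in WT, 214 and 339 in C54Y, against 234 and 412 in KO. The rise was by 1.23 (adjusted p = 0.00938; 0.0502 without WT replicate 2), and C54Y differed by 1.03 (adjusted p = 0.0803).

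Of 8 endoplasmic reticulum chaperone and folding genes, 2 rose in KO (median 0.31). Xbp1, the transcription factor of the unfolded protein response spliced by IRE1, had 1744 and 2076 normalized counts in WT, 2383 and 3594 in C54Y, against 3578 and 4757 in KO. Both KO libraries were above both WT libraries, as for 13.6% of tested genes. It rose by 1.12 in KO (95% interval 0.78 to 1.45; adjusted p = 0.00229) and differed by 0.62 in C54Y (adjusted p = 0.0951). Gene counts do not separate its spliced form. The calcium-binding chaperone Calr rose by 0.41 (adjusted p = 0.0446; called in 5 of 13 settings).

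Of 8 NRF2 targets, G6pdx rose by 0.68 (adjusted p = 0.0121; 0.0594 without WT replicate 1) and Txnrd1 fell by 0.64 (log2 change -0.64; adjusted p = 0.0191; 0.221 without WT replicate 2). G6pdx is X-linked, and the 527 tested X-linked genes had a median log2 change of 0.59 in KO. The part of that shift in the value of G6pdx, or of any other X-linked gene of the lists, was not tested. Apart from G6pdx, chromosomes are given here for the members only, so listed genes such as Slc7a3 were not sorted by it. Of 5 close paralogs of members, both relatives of Trib3 had called lower values in KO. Trib2 had 267 and 304 normalized counts in WT, 239 and 243 in C54Y, against 115 and 144 in KO, a log2 change of -1.14 (adjusted p = 0.0132; 0.0528 without WT replicate 2). Trib1 had a log2 change of -0.78 (adjusted p = 0.0183; 0.0559 and 0.175 without WT replicate 1 and 2).

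**Figure D4:**
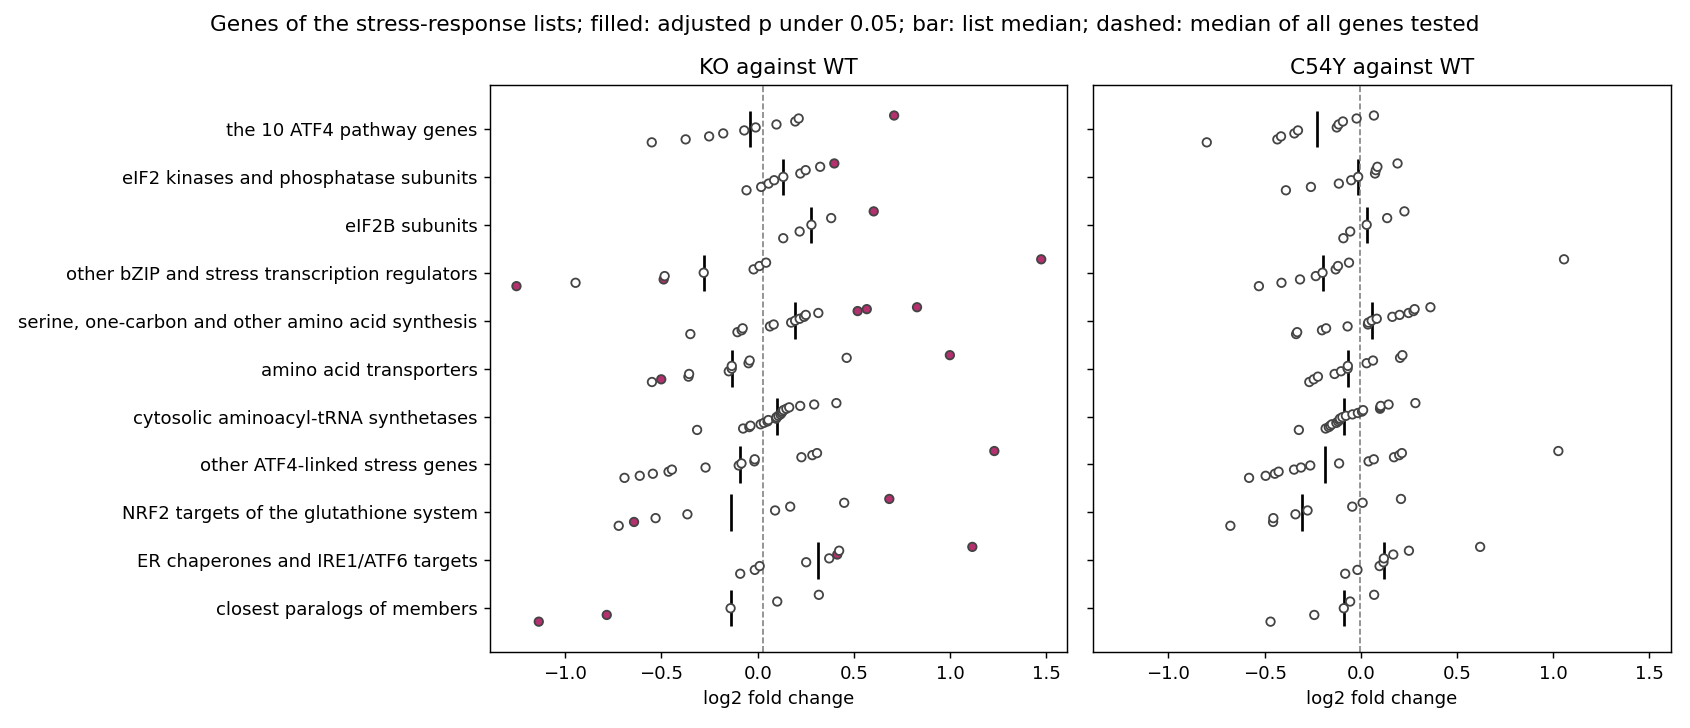
Log2 fold change (horizontal axis) of single genes in the 10 members and the 10 pathway lists, in KO and in C54Y against WT; filled points have an adjusted p under 0.05, vertical bars are list medians and dashed lines medians of all genes tested. Filled points are scattered over 9 of the 10 pathway lists in KO, with none among the aminoacyl-tRNA synthetases, and there is none in the C54Y panel.

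Genes were ranked by Pearson's r between their log2 values and the mean standardized log2 value of the 10 members, over 6 libraries. This mean does not stand for each member: Slc7a11 was called lower in replicate 2, where 6 members were called higher. Compared were 11344 genes with a mean normalized count of at least 100. The 5 highest were Cnot8 (r = 0.992), Cd74 (0.986), Gsto1 (0.985), Degs1 (0.983) and Kcmf1 (0.983), and 60 genes exceeded 0.95. The 6 points share their replicate numbers, which part them into 2 sets of 3, so these values describe the libraries and carry no p-value.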

How the data were processed

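The deposited table holds a normalized count per gene and library, a signal that the authors made by dividing reads by a size factor. The tools TopHat2 2.1.0, DESeq2, HTSeq, Trimmomatic and CASAVA and the build mm9 are listed in the submitters' processing notes without roles, and annotation, strand setting and filters are not given in the sources used here. All values (100%) were whole multiples of the column's step within 1e-06, so whole reads were recovered for count tests. Depth was 31774656 to 46772996 reads. Its effect on precision is largest for Slc7a11.

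Log2 of the normalized count plus 2 was fitted for all 15287 genes with at least 10 in at least 2 libraries, using limma 3.58.1 (robust, trend) in R 4.3.3, with genotype and replicate number as a block (2 residual degrees of freedom), and Benjamini-Hochberg adjustment at 0.05. Log2 fold changes are on that scale and understate changes of low genes. Same-numbered libraries deviated together from their group means (correlation across genes of 0.907 for WT and C54Y, 0.869 for WT and KO and 0.895 for C54Y and KO), so the numbers pair the samples. The fit was checked on simulated data. Alternatives were no block, pseudocounts of 0.5 and 8, other filters, TMM scaling, edgeR 4.0.16, DESeq2 1.42.0 and leaving out each library.

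The members, pathway lists and motifs were chosen with earlier results of these data known. The text names all 10 members, Thap1, 12 pathway genes fixed by name, and up to 4 called genes for each list and comparison. It also names the 5 genes most like the mean of the members. Nup62, Il4i1, Mars, Phgdh-ps1 and some cell type markers were named beyond that rule, after their values were seen. These markers are Nanog, Zfp42, Esrrb, Sox2, Tdgf1, Utf1, Lum, Tagln, Acta2, Loxl1 and Thy1. Gene lengths come from GENCODE M21 and promoters from RefSeq, both on GRCm38, and no coordinate of the authors' build was used.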

Additional observations from a re-analysis of the deposited data

How the results depend on the processing

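Without the replicate block none of the genotype comparisons gave a called gene or member (0), with 1049, 252 and 207 genes at an unadjusted p under 0.05 in KO against WT, C54Y against WT and KO against C54Y. The paired fit therefore carries every genotype call. DESeq2 with the block called 479 genes in C54Y against WT, and 453 genes and 1 member in KO against C54Y, where edgeR called 101 genes. Called genes in KO against WT were 1361 higher and 1133 lower, but 1097 and 1349 under TMM scaling and 1088 and 1369 in edgeR. TMM scaling moved the median of all genes between replicates by -0.11. Leaving out each library gave 1747 to 4802 genes and 0 to 3 members in KO against WT, 72 to 1758 and 0 to 2 in C54Y against WT, 9 to 2781 and 0 to 2 in KO against C54Y, and 8136 to 10415 and 7 to 8 between replicates. The lone sample left in a group is then assumed to vary like the others.

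The sign of some uncalled values turned. Under TMM scaling and in edgeR, Eif2ak1 in KO was -0.0022 and -0.0017, Ppp1r15a -0.031 and -0.029, and Nupr1 -0.044 and -0.023. Leaving out 1 library gave in KO against WT Atf4 -0.40 to 0.042, Asns -0.0077 to 0.20, Slc7a11 -0.15 to 0.0083, Eif2ak1 -0.043 to 0.21, Eif2ak2 -0.055 to 0.70, Nupr1 -0.35 to 0.43, Ppp1r15a -0.085 to 0.20, Psph -0.30 to 0.088 and Mthfd2 -0.27 to 0.12. In C54Y against WT it gave Asns -0.22 to 0.039, Atf5 -0.023 to 0.16, Psat1 -0.10 to 0.060, Eif2ak1 -0.15 to 0.052, Eif2ak2 -0.25 to 0.43 and Nupr1 -0.43 to 0.20. In KO against C54Y it gave Atf4 -0.074 to 0.37, Chac1 -0.13 to 0.075 and Ddit3 -0.44 to 0.21. The cause was not tested. With 2 libraries a genotype, uncalled members are not shown to be unchanged.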

Other observations

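Between the replicate numbers, 50 of the 104 genes of the pathway lists were called higher in replicate 2 and 28 lower (75.0%). Of all tested genes 64.9% were called, 32% as higher and 32.8% as lower. All 5 eIF2B subunits were higher in replicate 2, with a median of 1.22. Of the 15 genes of amino acid synthesis 11 were higher and 1 was lower, and of the 20 aminoacyl-tRNA synthetases 13 were higher and 3 lower (median 0.74). The kinases that act on eIF2 did not move together: Eif2ak1 was higher (0.57; adjusted p = 0.00315), while Eif2ak2 (-2.26; 2.1e-05), Eif2ak3 (-1.05; 0.00011) and Eif2ak4 (-0.78; 0.00081) were lower, all by limma. Atf3, which differed between KO and WT, did not pass the test between the replicates (-0.01; adjusted p = 0.964).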
